A study of Homo sapiens with 4 samples.

Results

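Cholesterol genes were followed from the first enzyme of synthesis to export from the cell in Hut78, an established human cell line of cutaneous T-cell lymphoma, a cancer of T cells in the skin. The set holds 29 genes chosen by their role in the pathway, with earlier results of these data known. They are 18 enzymes of synthesis, 5 genes of the SREBP control system, 4 genes of sterol transport and uptake control, and 2 efflux pumps. All 29 were found among the 25847 genes measured, each as the transcript cluster with the highest mean where a gene had several. There were 2 arrays of Hut78 cells kept in ribavirin, a guanosine analogue used against viruses, at 50 µM for 120 h, and 2 arrays of Hut78 cells without treatment (control). Both groups are the same line and were grown with 10% fetal bovine serum, which itself carries cholesterol, before any treatment. The labels give neither the time in culture of the control cells nor whether arrays of a group came from separate cultures, so p-values measure no more than the spread among these 4 samples, part or all of which may be technical.

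Cells make cholesterol from acetyl-CoA through mevalonate, farnesyl diphosphate, squalene and lanosterol. Most genes of the chain are switched on by the SREBP transcription factors, which are held in the endoplasmic reticulum by SCAP and the INSIG proteins when sterols are plentiful and are cut free when sterols are scarce. When cholesterol is in excess, LXR receptors instead raise the efflux pumps ABCA1 and ABCG1 and the ubiquitin ligase MYLIP. Dividing lymphocytes are known to draw on this program for new membrane.

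The values are log2 probe set summaries, so a difference of 1 is a doubling, and levels of different genes are not set against each other. The highest background probe set averaged 4.95 in ribavirin arrays and 5.20 in control arrays, and a mean at or below its own group's figure is called here within the background range. The gene medians were 4.20 and 4.21 in ribavirin arrays and 4.24 and 4.30 in control arrays. Of 13 T-cell markers, 9 fell, 1 rose and 2 lay within the background range in both groups. CD3D read 11.40 and 11.43 in ribavirin arrays and 11.87 and 11.81 in control arrays, and CD3E 10.86 and 10.89 with ribavirin against 11.09 and 11.12 in control. CD2 lay within the background range on all 4 arrays, and CD4 averaged 4.54 with ribavirin, within that range, and 5.56 in control. The mean level of the T-cell list was 7.25 and 7.26 in ribavirin arrays and 7.89 in both control arrays. That of 8 epithelial markers was 6.39 and 6.42 with ribavirin and 7.14 and 7.08 in control (6 fell), that of 6 B-cell markers 5.71 and 5.67 against 6.10 and 6.05 (2 fell), and that of 12 monocyte and macrophage markers 4.20 and 4.21 against 4.27 and 4.39 (1 rose, 1 fell). All 8 hepatocyte markers lay within the background range in both groups. The part of these shifts in the sterol gene results was not tested. All 4 arrays are of the Hut78 line, and fewer cells expressing a marker cannot be told apart from less RNA per cell.

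With ribavirin 11 of the 29 sterol genes fell and 3 rose, while 15 did not pass the test (limma, Benjamini-Hochberg adjusted p under 0.05 over all genes). Over all genes 5.88% fell and 9.34% rose, 15.2% in all. The falls took in the squalene synthase FDFT1, the last enzyme of the chain DHCR7, and the transcription factor genes SREBF1 and SREBF2, and the rises were those of the sterol carrier STARD4, the first enzyme ACAT2 and the isomerase IDI1. The median log2 change of the 29 was -0.22, beside -0.05 over all genes. Changes of at least 1.5-fold that passed were 5 falls and 2 rises, against 2.26% and 5.13% of all genes. In 17 of the 29 genes both ribavirin arrays lay below both control arrays, in 7 above, and in 5 the groups overlapped, where 35.8% of all genes lay apart downward, 24.1% apart upward and 59.9% either way. With dim genes left out of the fit (12924 genes and 28 of the 29, without ABCA1), 12 fell and 6 rose, against 14.0% and 24.0% of the genes tested. The share of rises among all calls was 61.3%, but 73.7% with arrays centred on their medians, where 8 of the 29 fell and 4 rose, and 49.3% with quantile normalization, where 14 fell and 3 rose.

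The calls depended on both control arrays. With either control replicate left out, no sterol gene passed in limma (the adjusted p of FDFT1, DHCR7 and STARD4 lay between 0.0517 and 0.0556), and over all genes there were 22 rises with 4 falls (without control replicate 1) or 5 falls (without control replicate 2). Without ribavirin replicate 1 there were 3 falls and 1 rise among the sterol genes, and without ribavirin replicate 2 there were 5 and 2. All 14 genes that passed with 4 arrays kept the sign of their change in each of these fits. FDFT1, DHCR7, SREBF1 and STARD4 passed in both fits with 1 ribavirin array.

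**Figure D1:**
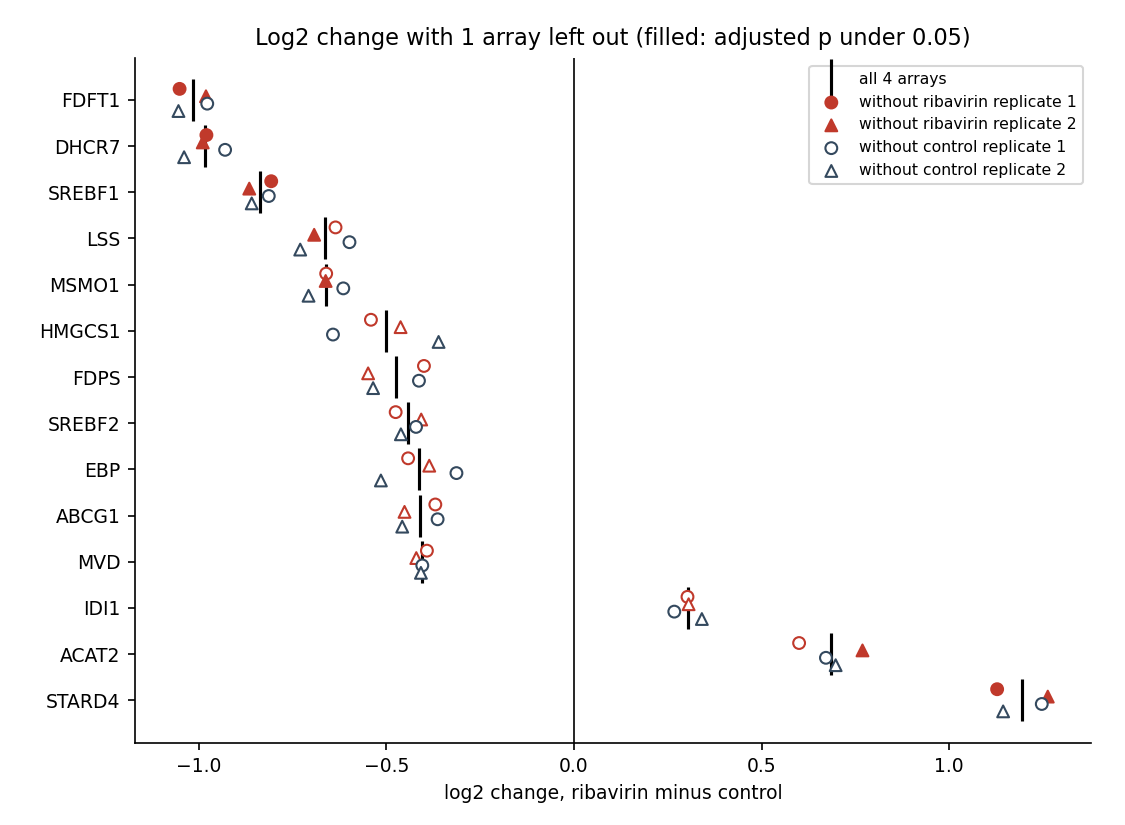
Log2 change, ribavirin minus control, of the 14 sterol genes that passed, with all 4 arrays (bar) and with 1 array left out (red, a ribavirin array left out; dark, a control array left out; filled where the adjusted p was under 0.05). No dark symbol is filled, and no symbol crosses 0.

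**Figure D2:**
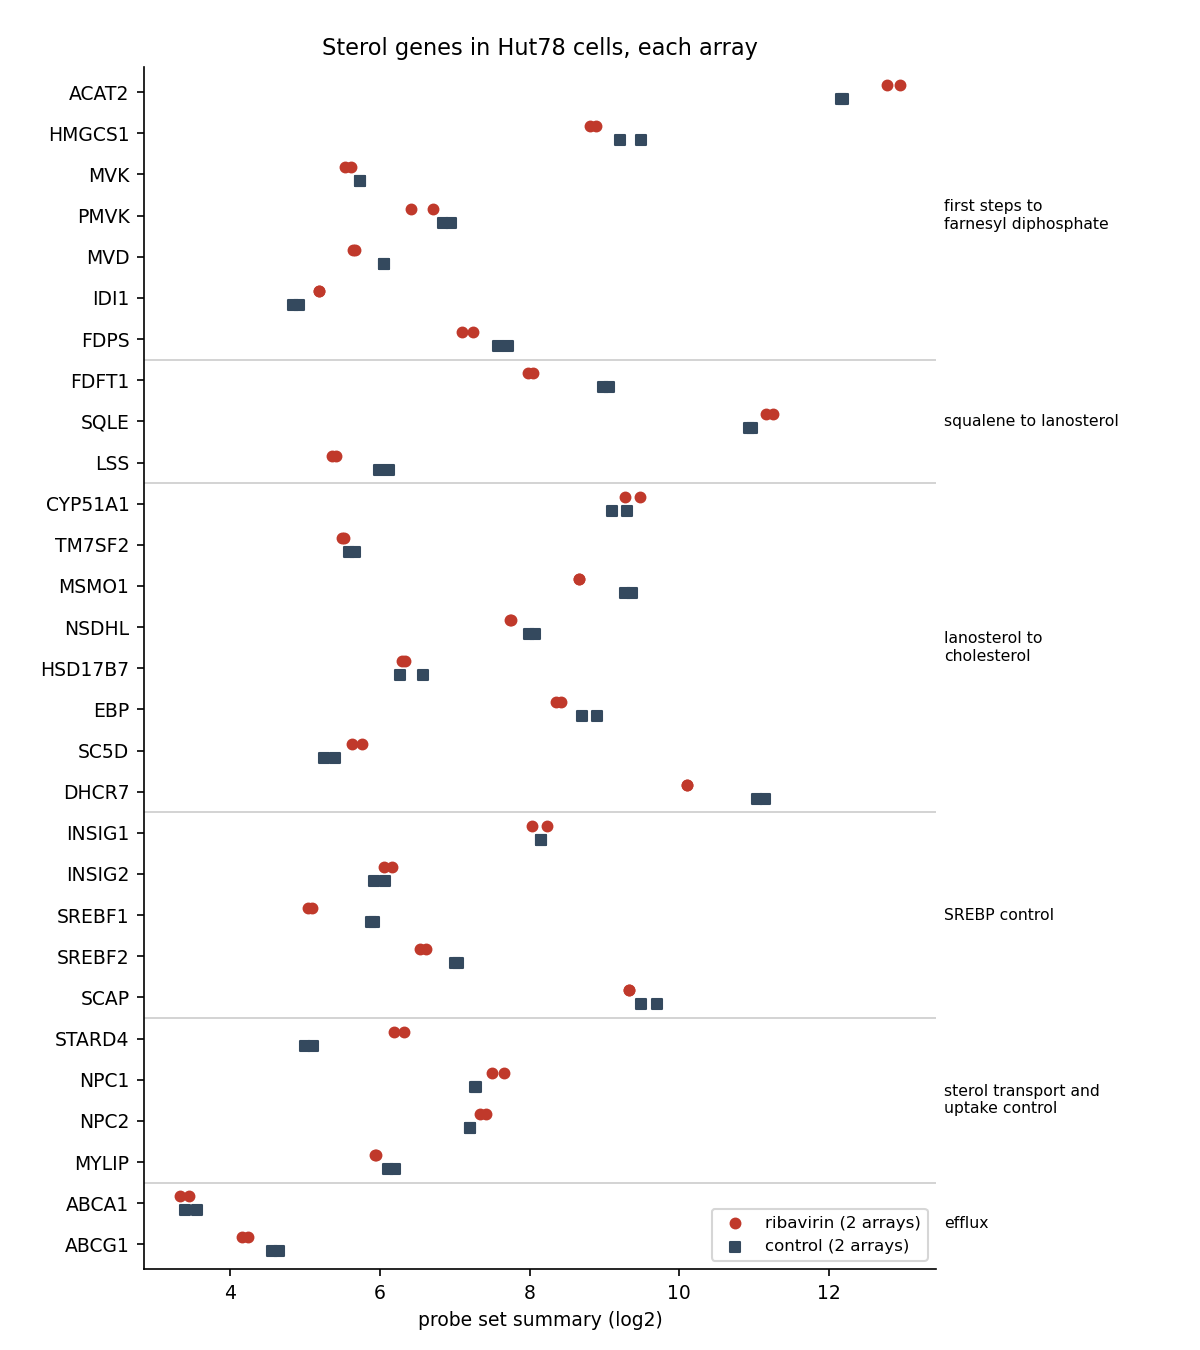
Probe set summary (log2, horizontal axis) of each of the 29 sterol genes on every array, with ribavirin arrays as red circles above the control arrays as dark squares, and genes ordered along the pathway. The circles lie to the left of the squares in 17 genes, to the right in 7 and among them in 5.

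The early chain from acetyl-CoA to farnesyl diphosphate was mixed: 3 of its 7 enzymes fell, 2 rose and 2 did not pass. HMGCS1, which makes HMG-CoA (TC05001316.hg.1), read 8.89 and 8.81 in ribavirin arrays and 9.21 and 9.49 in control arrays. It fell by 0.50 on the log2 scale (SE 0.11, limma adjusted p = 0.0443), and the gap between its control arrays was wider than that between its ribavirin arrays. MVD, the mevalonate diphosphate decarboxylase (TC16001340.hg.1), read 5.64 and 5.66 with ribavirin and 6.06 and 6.05 in control, a fall of 0.41 (SE 0.07, limma adjusted p = 0.0199). FDPS, which joins isoprene units into farnesyl diphosphate (TC01001299.hg.1), read 7.10 and 7.25 with ribavirin and 7.71 and 7.58 in control. Its fall was 0.47 (SE 0.09, limma adjusted p = 0.0277), and it lost the call with arrays centred on their medians (adjusted p = 0.0521). In each of these 3 genes both ribavirin arrays lay below both control arrays. FDPS has processed pseudogenes, and whether its probes also read them was not tested.

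ACAT2, the cytosolic thiolase that joins the first acetyl units (TC06003166.hg.1), went the other way. It read 12.95 and 12.78 in ribavirin arrays and 12.17 and 12.20 in control arrays, a log2 change of 0.68 (SE 0.09, 1.61-fold, limma adjusted p = 0.00921). A second ACAT2 cluster (TC06001147.hg.1) read 10.94 and 10.85 with ribavirin and 10.52 and 10.45 in control, a change of 0.41. In RefSeq the gene overlaps TCP1, which had a log2 change of -0.15 (limma adjusted p = 0.245), and SOD2, which rose by 0.82 (limma adjusted p = 0.00734), and whether probes are shared was not tested. IDI1, the isopentenyl diphosphate isomerase, read 5.18 on both ribavirin arrays and 4.84 and 4.91 in control arrays. Its change of 0.30 (SE 0.07, limma adjusted p = 0.0497) was just inside the threshold, its control mean lay within the background range and its ribavirin mean below the top of the control range, so no fold is given, and with robust variance moderation it did not pass (adjusted p = 0.051). The mevalonate kinases did not pass. MVK had a change of -0.16 (95% interval -0.34 to 0.02) and PMVK of -0.33 (-0.64 to -0.03), and in both genes the ribavirin arrays lay below the control arrays.

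Of the 3 enzymes from farnesyl diphosphate to lanosterol, 2 fell and 1 did not pass. FDFT1, the squalene synthase that commits farnesyl diphosphate to sterols (TC08000093.hg.1), read 8.04 and 7.97 in ribavirin arrays and 9.06 and 8.99 in control arrays. The fall of 1.02 on the log2 scale (SE 0.08, limma adjusted p = 0.00326) made it 2.02-fold lower with ribavirin, the furthest of the 29 genes downward. LSS, the lanosterol synthase that closes the sterol rings (TC21000554.hg.1), read 5.36 and 5.42 with ribavirin and 6.12 and 5.99 in control, a fall of 0.66 (SE 0.08, 1.58-fold lower, limma adjusted p = 0.00852). Between them in the chain stands SQLE, the squalene epoxidase, which read 11.25 and 11.16 with ribavirin and 10.94 and 10.97 in control. Both of its ribavirin arrays thus lay above both controls, and the log2 change of 0.25 (95% interval 0.06 to 0.44) did not pass over all genes (limma adjusted p = 0.091). It passed where dim genes were left out of the fit (adjusted p = 0.0449).

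Among the 8 enzymes that turn lanosterol into cholesterol 3 fell, none rose and 5 did not pass. DHCR7, the reductase of the last step (TC11002038.hg.1), read 10.10 and 10.11 in ribavirin arrays and 11.14 and 11.03 in control arrays. That was a fall of 0.98 (SE 0.08, 1.98-fold lower, limma adjusted p = 0.00359). MSMO1, the oxygenase that removes methyl groups from the sterol ring (TC04000828.hg.1), read 8.66 and 8.67 with ribavirin and 9.37 and 9.28 in control, a fall of 0.66 (SE 0.07, limma adjusted p = 0.00682). EBP, a sterol isomerase (TC0X000253.hg.1), read 8.42 and 8.36 with ribavirin and 8.90 and 8.70 in control. It fell by 0.41 (SE 0.09, limma adjusted p = 0.045), and with arrays centred on their medians it did not pass (adjusted p = 0.106).

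The other late enzymes fell short of the threshold on either side of 0. NSDHL, a dehydrogenase that acts with MSMO1, read 7.76 and 7.74 in ribavirin arrays and 8.08 and 7.99 in control arrays, and its change of -0.28 was just outside (limma adjusted p = 0.0625). SC5D, the desaturase ahead of DHCR7, read 5.76 and 5.62 with ribavirin and 5.25 and 5.40 in control, and its change of 0.37 was likewise just outside (limma adjusted p = 0.0613). Both passed with dim genes left out, NSDHL at an adjusted p of 0.0291 and SC5D at 0.0292, and NSDHL also with quantile normalization (0.0159) and SC5D with arrays centred on their medians (0.032). CYP51A1, the demethylase that takes up lanosterol, had a change of 0.18 (95% interval -0.11 to 0.46) with overlapping arrays, and its second cluster one of 0.32. TM7SF2, a sterol reductase, had a change of -0.12 (-0.30 to 0.07). HSD17B7, a ketoreductase with a near-identical pseudogene whose probes may be shared, had one of -0.11 (-0.41 to 0.19).

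**Figure D3:**
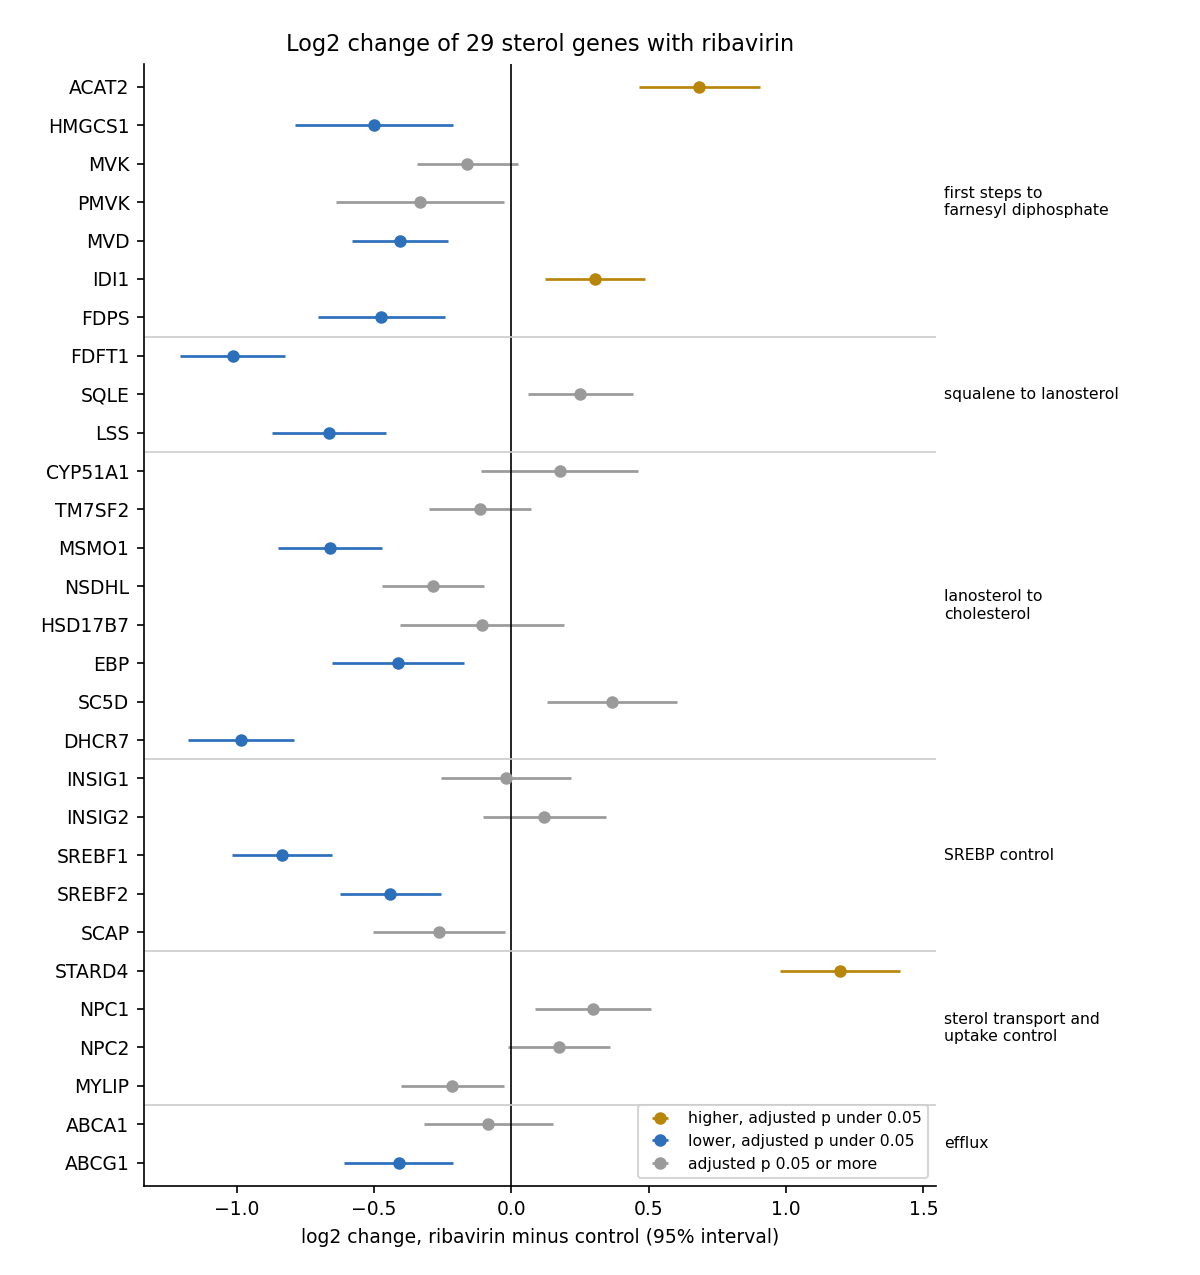
Log2 change of the 29 sterol genes, ribavirin minus control, with the 95% interval of the limma fit, in pathway order (blue fell, gold rose, grey did not pass). FDFT1, DHCR7 and SREBF1 lie furthest left at -1.02, -0.98 and -0.84, and STARD4 furthest right at 1.20.

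In the SREBP control system both transcription factor genes fell and the 3 genes of the retention machinery did not pass. SREBF1, whose SREBP-1 products act mainly on fatty acid genes (TC17001192.hg.1), read 5.04 and 5.10 in ribavirin arrays and 5.93 and 5.88 in control arrays. It fell by 0.84 (SE 0.07, 1.79-fold lower, limma adjusted p = 0.00411). The ribavirin mean of SREBF1, 5.07, lay just above the top of the ribavirin background range (4.95) and below that of the control range (5.20). SREBF2, the gene of SREBP-2 and the main activator of the cholesterol enzymes (TC22000347.hg.1), read 6.61 and 6.54 with ribavirin and 7.04 and 6.997 in control, a fall of 0.44 (SE 0.07, limma adjusted p = 0.0184). In neither gene did the groups overlap. The 95% interval of the change was -1.02 to -0.65 for SREBF1 and -0.63 to -0.26 for SREBF2. SCAP, the escort of both proteins, read 9.33 on both ribavirin arrays and 9.70 and 9.49 in control arrays, and its change of -0.26 (95% interval -0.50 to -0.02) did not pass (limma adjusted p = 0.141), but passed with quantile normalization (adjusted p = 0.0424). A second SCAP cluster had a change of -0.29. INSIG1, itself a classic SREBP target, read 8.24 and 8.03 with ribavirin and 8.16 and 8.15 in control, so the control arrays lay between the ribavirin arrays. Its change was -0.02 (95% interval -0.26 to 0.22), and that of its relative INSIG2 was 0.12 (-0.10 to 0.34).

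SREBPs bind the sterol regulatory element beside CCAAT boxes, which NF-Y binds, and GC boxes, which Sp1 binds. Promoter windows from 250 bases before to 50 after the annotated start were taken from RefSeq (GRCh38.p14) and matched 25 of the 29 genes with 32 windows. ACAT2, FDFT1, SQLE and ABCG1 had no window. The 6 below are 1 window each of both SREBP genes, 3 enzymes that fell and the carrier that rose. They are in lower case, 5′ to 3′ on the gene's strand. Capitals mark TCACNCCAC, a form of the sterol regulatory element, and CCAAT, both searched on both strands, so that CCAAT also appears as ATTGG.
SREBF2, chr22:41832855-41833154, plus strand: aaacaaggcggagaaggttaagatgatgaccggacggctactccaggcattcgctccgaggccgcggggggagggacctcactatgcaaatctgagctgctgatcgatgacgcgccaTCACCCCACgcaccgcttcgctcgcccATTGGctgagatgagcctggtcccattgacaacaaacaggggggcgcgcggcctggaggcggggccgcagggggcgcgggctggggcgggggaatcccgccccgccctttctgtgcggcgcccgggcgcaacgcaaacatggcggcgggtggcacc
SREBF1, chr17:17836937-17837236, minus strand: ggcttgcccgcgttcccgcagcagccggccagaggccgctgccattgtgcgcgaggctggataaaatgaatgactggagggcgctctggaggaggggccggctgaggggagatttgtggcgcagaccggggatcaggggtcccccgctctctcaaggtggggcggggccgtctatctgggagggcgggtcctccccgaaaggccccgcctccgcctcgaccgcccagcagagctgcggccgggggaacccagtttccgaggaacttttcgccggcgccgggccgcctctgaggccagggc
DHCR7, chr11:71448344-71448643, minus strand: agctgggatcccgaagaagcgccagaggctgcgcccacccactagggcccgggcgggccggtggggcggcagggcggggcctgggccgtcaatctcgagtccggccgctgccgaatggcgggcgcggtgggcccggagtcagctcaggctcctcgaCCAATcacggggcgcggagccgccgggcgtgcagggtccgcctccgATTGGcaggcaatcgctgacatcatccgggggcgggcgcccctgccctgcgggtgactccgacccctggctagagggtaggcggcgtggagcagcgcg
MSMO1, chr4:165327419-165327718, plus strand: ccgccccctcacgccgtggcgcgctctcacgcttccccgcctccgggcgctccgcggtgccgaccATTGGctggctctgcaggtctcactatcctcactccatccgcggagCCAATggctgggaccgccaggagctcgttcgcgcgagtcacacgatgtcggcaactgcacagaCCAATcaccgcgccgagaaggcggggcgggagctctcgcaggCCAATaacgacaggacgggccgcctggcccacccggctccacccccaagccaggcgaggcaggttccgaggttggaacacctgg
LSS, chr21:46228725-46229024, minus strand: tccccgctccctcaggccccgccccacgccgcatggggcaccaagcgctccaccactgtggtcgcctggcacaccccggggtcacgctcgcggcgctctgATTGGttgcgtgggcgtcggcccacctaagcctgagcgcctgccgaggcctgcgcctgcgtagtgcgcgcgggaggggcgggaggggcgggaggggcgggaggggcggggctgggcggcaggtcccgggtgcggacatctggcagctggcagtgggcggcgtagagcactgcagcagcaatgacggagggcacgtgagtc
STARD4, chr5:111512486-111512785, minus strand: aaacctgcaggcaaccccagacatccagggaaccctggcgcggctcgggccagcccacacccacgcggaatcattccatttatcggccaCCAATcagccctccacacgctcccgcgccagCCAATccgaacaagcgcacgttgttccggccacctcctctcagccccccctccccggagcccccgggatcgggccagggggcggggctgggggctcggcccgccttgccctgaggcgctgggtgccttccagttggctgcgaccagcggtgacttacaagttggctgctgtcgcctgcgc
SREBF2 carried the sterol regulatory element as TCACCCCAC, starting at position -133 from the start, with an inverted CCAAT box at -106. It was the only 1 of the 32 windows with TCACNCCAC, which 1.13% of all 35116 windows hold. CCAAT stood in 20 of the 32 windows (62.5%), against 34.6% of all windows. The printed MSMO1 window held 4 of them, those of DHCR7 and STARD4 2 each, that of LSS 1 and that of SREBF1 none. A second DHCR7 window, which is not printed, held no CCAAT. Of the genes with a window, 8 of 9 that fell, 2 of 2 that rose and 8 of 14 that did not pass held CCAAT in at least 1 window. Over all genes with a window this was so for 10846 of 27305. The GC box GGGCGG stood in 30 windows (93.8%), against 45.0% of all windows and 56.3% of those of protein-coding genes. A repeat of GGTCA with any 4 bases between the copies stood in none and in 0.0541% of all windows. That spacing is not the one of the LXR element, which was not searched for. No printed match overlapped another, and these counts describe letters in short windows and not bound sites.

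Of the 4 genes of sterol transport and uptake control 1 rose and 3 did not pass. STARD4, a small soluble carrier that moves cholesterol between membranes and is a known SREBP target (TC05001673.hg.1), read 6.32 and 6.18 in ribavirin arrays and 5.11 and 5.003 in control arrays. The fitted log2 change was 1.20 (SE 0.09, limma adjusted p = 0.00311), but the control mean lay within the background range. Set against the top of that range, the ribavirin mean of STARD4 was 2.08-fold higher. That figure takes no account of the spread between arrays. NPC1 and NPC2, the pair of proteins that export cholesterol from lysosomes, did not pass. NPC1 read 7.65 and 7.502 with ribavirin and 7.29 and 7.28 in control, a change of 0.30 (95% interval 0.09 to 0.51, limma adjusted p = 0.0778), and passed with dim genes left out (adjusted p = 0.0379). NPC2 read 7.42 and 7.34 with ribavirin and 7.20 and 7.21 in control, a change of 0.17 (-0.01 to 0.36). MYLIP, the ligase that marks lipoprotein receptors for destruction, read 5.93 and 5.95 with ribavirin and 6.20 and 6.11 in control, a change of -0.22 (-0.40 to -0.03, limma adjusted p = 0.125), and passed with quantile normalization (adjusted p = 0.0496). In NPC1 and NPC2 both ribavirin arrays lay above both controls, and in MYLIP below.

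The efflux pumps were dim in this line. ABCG1 (TC21000198.hg.1) read 4.15 and 4.23 in ribavirin arrays and 4.65 and 4.56 in control arrays, within the background range in both groups, and fell by 0.41 (SE 0.08, limma adjusted p = 0.0277). The call was lost with arrays centred on their medians (adjusted p = 0.06). Of its 3 other clusters, TC21000200.hg.1 and TC21000747.hg.1 had changes of -0.58 and -0.66 and passed too (limma adjusted p over all clusters 0.0246 and 0.0338), while TC21000748.hg.1 had one of 0.16 that did not pass (0.379). All 4 clusters lay within the background range in both groups. ABCA1 read 3.33 and 3.45 with ribavirin and 3.39 and 3.55 in control, also within the background range, with a change of -0.08 (95% interval -0.32 to 0.15). The change in ABCA1 did not pass, and at that level a change may be understated.

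A second list of 60 further sterol genes was set beside the 29. Of these 8 rose (13.3%), 6 fell (10%) and 46 did not pass, against 9.34% rising and 5.88% falling over all genes, with a median log2 change of 0.00, beside -0.22 for the 29 and -0.05 over all genes. In the acetyl-CoA and isoprenoid group of 11, ACLY, which supplies cytosolic acetyl-CoA, fell by 0.46 and GGPS1, which makes geranylgeranyl diphosphate from farnesyl diphosphate, rose by 0.56. In the SREBP processing and degradation group of 9, MBTPS2, the protease of the second SREBP cut, rose by 0.57, while TMEM97, a binding partner of NPC1, fell by 0.39. None of 5 lipoprotein receptor genes passed. Sterol transport held 3 rises and 1 fall among 17 genes: OSBPL3 read 9.92 and 9.76 in ribavirin arrays and 8.499 and 8.47 in control arrays, a change of 1.35 (SE 0.08, 2.56-fold, limma adjusted p = 0.00245). OSBPL11 (0.92) and OSBPL9 (0.69), like OSBPL3 relatives of the oxysterol-binding protein, also rose, and GRAMD1A, a sterol carrier, fell by 0.43 (it is named here because it was the 1 fall of the group, a choice made once its value was known).

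Genes of sterol ester storage moved in both directions. SOAT1, which esterifies cholesterol for storage, read 9.66 and 9.53 in ribavirin arrays and 8.94 and 8.96 in control arrays, a rise of 0.64 (SE 0.08, limma adjusted p = 0.00872). NCEH1, which splits the esters again, read 6.13 and 5.74 with ribavirin and 4.92 and 4.996 in control, where it lay within the background range. It rose with a fitted change of 0.98 (SE 0.14, limma adjusted p = 0.0133), and its ribavirin mean was 1.67-fold above the top of that range. SOAT2, the relative of SOAT1 known from gut and liver, averaged 4.76 with ribavirin, within the background range, and 5.23 in control (limma adjusted p = 0.0175). It fell with ribavirin, and its control mean was 1.21-fold above the top of the ribavirin range (4.95). That control mean lay only just above the top of its own group's range (5.20), so SOAT2 was near background in both groups. The folds of NCEH1 and SOAT2 take no account of the spread between arrays. In the LXR group of 8, the partner receptor RXRA fell by 0.60 and LPCAT3, a phospholipid-remodelling enzyme, by 0.66, and the LXR genes NR1H2 and NR1H3 had changes of 0.050 and 0.0028, which did not pass. All 6 oxysterol and bile acid enzymes lay within the background range in both groups. With either control replicate left out, no gene of this list passed. Without ribavirin replicate 1 there were 3 rises and 1 fall, and without ribavirin replicate 2 there were 7 rises and 1 fall.

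**Figure D4:**
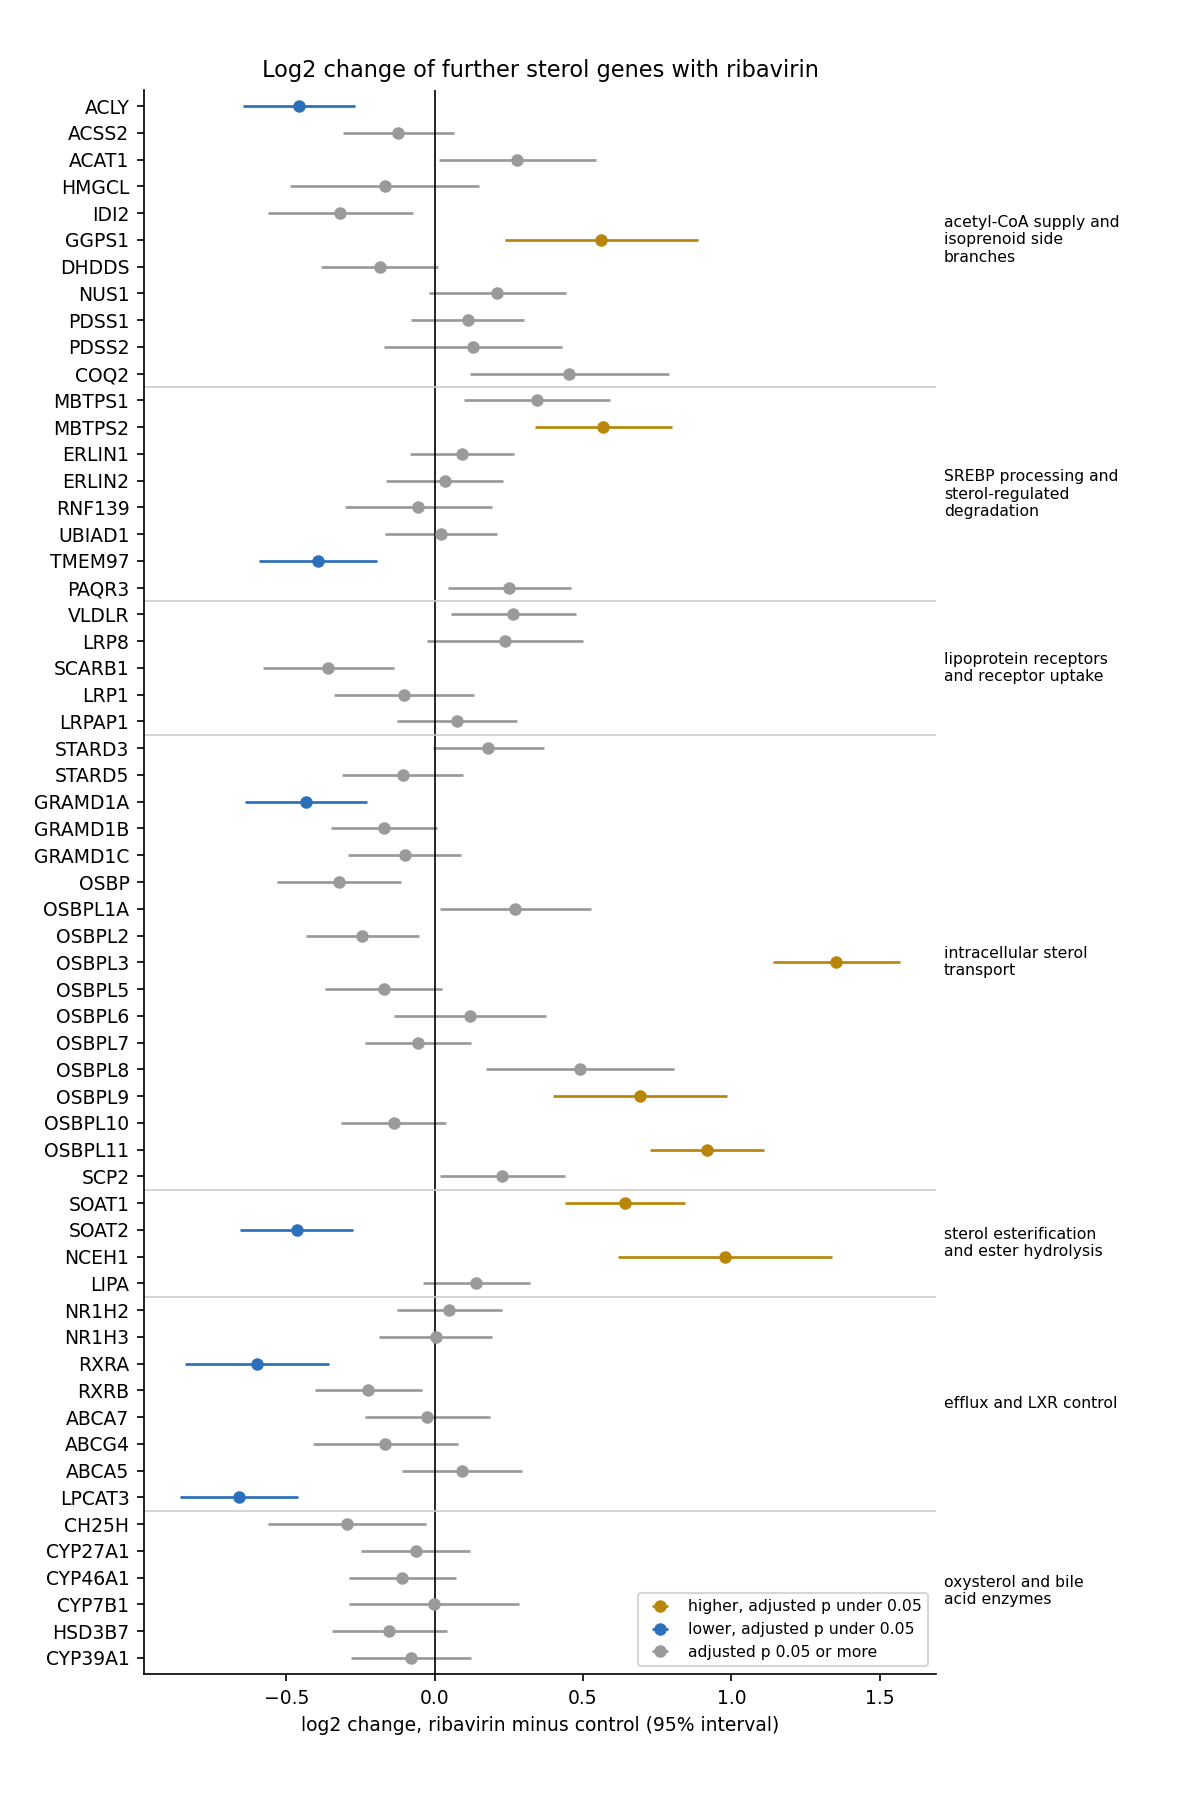
Log2 change of the further sterol genes (1 of the 60 is not drawn), ribavirin minus control, with the 95% interval of the limma fit, by group (blue fell, gold rose, grey did not pass). OSBPL3 lies furthest right at 1.35 and LPCAT3 furthest left at -0.66.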

How the data were processed

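Per the labels' protocols, 100 ng of total RNA was amplified and biotin-labelled for each of 4 Affymetrix whole-transcript arrays. The authors deposited log2 summaries per probe set, processed with Affymetrix Expression Console and RMA per the submitters' processing notes; the deposited table's name gives the SST form of RMA. Software versions are not stated in the sources used here. Log2 summaries near background can understate changes. A second deposited table held identical values. Of 67528 transcript clusters, the 33444 with 1 symbol were kept, and the cluster with the highest mean stood for its gene, which left 25847 genes. Groups came from the sample titles. The comparison of ribavirin with control used limma (version 3.58.1, R 4.3.3) with lmFit, eBayes and no covariate; tests were two-sided, and p was adjusted over all genes by Benjamini-Hochberg with a threshold of 0.05. All 29 genes are named, and in each group of the second list up to 3 that passed, by smallest p, except 1 that is not reported here. Genes and lists were chosen with earlier results of these data known. In a simulation of ribavirin against control over 25847 genes, 1 of 50 changes of 1.5-fold, 36 of 50 of 2-fold and 49 of 50 of 4-fold were recovered. It left 25647 genes unchanged, of which 8 were called, whereas 15.2% of all genes passed in the data. With so few changed genes the adjustment of p is stricter, so these rates do not carry over to the calls made here. Arrays have no read depth, and their number limits the precision. Tried as well were variance moderation with an intensity trend or in robust form, quantile normalization, centring of arrays on their medians, a fit without the dimmer genes, the mean of a gene's clusters, array number as a block, adjusted p thresholds of 0.1 and 0.01, and omission of each array.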

Additional observations from a re-analysis of the deposited data

How the results depend on the processing

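The median of the 29 genes stayed below 0 under every alternative that gives one, at -0.30 to -0.15. Rises of the 29 numbered 6 with dim genes left out and 6 at an adjusted p under 0.1, and falls 5 at an adjusted p under 0.01. In the second list falls were 11 with quantile normalization, 10 at 0.1 and 1 at 0.01, and rises 3 at 0.01. Over all genes 2449 fell at 0.1, and 894 rose and 420 fell at 0.01. With 1 array left out the ranges were 0 to 2 rises and 0 to 5 falls of the 29, 0 to 7 and 0 to 1 in the second list, and 22 to 1430 and 4 to 571 over all genes. INSIG1 changed sign with centring (0.045), and spanned -0.12 to 0.083 with 1 array left out, as HSD17B7 spanned -0.26 to 0.044. ABCA1 was 0.0057 with quantile normalization. None of these 3 passed in any of these fits. With the array number as a replicate block 2 of the 29 rose and 8 fell (HMGCS1, IDI1, FDPS and ABCG1 no longer passed), and 8 rose and 5 fell in the second list (2093 and 1247 over all genes). Same-numbered arrays are not tied by any label and deviated together only weakly (r = 0.0514 across genes). The cause of these differences was not tested; with 1 array left out, the spread of the single remaining array is taken to equal that of the full group.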
